A study of Mus musculus with 8 samples.

Results

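The retinoic acid receptor genes Rara, Rarb and Rarg and the retinoid X receptor genes Rxra, Rxrb and Rxrg were examined in ATAC-seq data from sorted mouse germ cells. A peak was taken as a member when the deposited peak table listed one of these 6 symbols among its genes, which gave 160 of 328733 peaks. Peaks of different libraries were merged wherever they shared at least 1 bp, and the 160 peaks fell into 38 of 87144 merged regions. In ATAC-seq a transposase inserts adapters into open chromatin, so sequenced tags pile up where DNA is accessible. Mice carrying a PIWIL2-eGFP transgene were fed WIN 18,446, a compound that blocks RA synthesis, at 100 mg/kg each day for 7 days. The 0 h mice (before RA) were then collected without an injection, and the others received 200 µg RA at 9 dpp and were collected 18, 48 or 120 h later. Thus all 4 groups had received WIN 18,446, and the 3 later groups differed from 0 h by RA and by age together. The paper used this treatment to synchronize spermatogenesis, and takes 0, 18, 48 and 120 h as undifferentiated A, A1/A2, A3 and B spermatogonia. By that account the stage of the cells differed between the groups too. Each group had 2 libraries, each made from 1 mouse. The labels give a background of C57BL/6 x 129s4/SvJae, whereas the methods give C57BL/6 x SJL. The Piwil2 promoter drives eGFP in germ cells from before birth through early spermatids. The sort thus takes germ cells as a class, and their staging rests on the synchrony.

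RA enters the nucleus and binds RARs, which sit on DNA as heterodimers with RXRs at RA response elements, pairs of a hexamer related to AGGTCA. Without ligand the heterodimer holds corepressors such as NCOR1, and with ligand these give way to coactivators that acetylate histones. RARG is the receptor best known for the response of undifferentiated spermatogonia to RA, whereas RARA is best known for its role in Sertoli cells, and Rarb is itself a classical RA target gene. RXRs also pair with thyroid hormone, vitamin D, PPAR and LXR receptors.

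The authors reduced all libraries to the same number of tags, and the 0 h libraries still had 69089 and 72215 peaks against 24643 to 39551 in the 6 later libraries. The height of a peak is given here as its summit value, the tag coverage at the highest point. No library had a summit value below 24, so where no peak was called the height is not known and is not 0. All 10 germ cell markers examined had a peak within 1000 bp of their start in at least 1 library and 7 had one in all 8. Of 8 Sertoli cell markers, 6 had a start peak in both 0 h libraries and 2 to 4 in the later ones, with summed heights of 613 and 764 before RA, 105 and 149 after 18 h, 175 and 251 after 48 h, and 120 and 246 after 120 h. Fshr and Rhox5, both Sertoli genes, had none in any library. The 5 peritubular myoid markers summed to 512 and 601 before RA and to 86 to 276 later, and the 10 germ cell markers to 3190 and 3600 before RA and to 1016 to 2549 later. Of 6 Leydig markers only Lhcgr had a start peak, in both 0 h libraries and in 18 h replicate 2. Of 6 blood and vessel markers only Csf1r and Cd68 had one, and only at 0 h. The part of other cell types in the values that follow was not tested. In sorted cells in bulk, fewer cells with an open site and a less open site in each cell cannot be told apart.

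Sequences at some of the starts are shown for reference, and whether they bear on the peaks was not tested. All 6 genes were found in the RefSeq promoter table (GRCm38.p6, the assembly called mm10), with 13 promoters of 250 bases before and 50 after a start. The Rarb promoter held a DR5, a direct repeat of a hexamer with 5 bases between the copies, and it was the only one of the 13 with a DR5. Each copy could be NGGTCA, or NGTTCA in its place, with A or G as the leading letter. On both strands, 32 of 32851 promoters in the table (0.0974%) held one. The Rarb DR5 lies at chr14:16575513-16575529, 37 bases before the RefSeq start at 16575476, and inside the 5′ UTR of a longer GENCODE transcript. Peaks in 7 of the 8 libraries spanned it whole, with summits 95 to 175 bp away, and in 120 h replicate 2 the peak covered 4 of its 17 bases. The 30 bases around it are given 5′ to 3′ on the strand of the gene, with the hexamers in capitals.
Rarb DR5, chr14:16575506-16575535, minus strand: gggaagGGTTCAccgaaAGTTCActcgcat
Rarg has 2 starts, and the 250 bases before each are given because only the internal one was open in all libraries. The AGGTCA hexamer is in capitals, here read from the other strand.
Rarg upstream start, chr15:102257523-102257772, minus strand: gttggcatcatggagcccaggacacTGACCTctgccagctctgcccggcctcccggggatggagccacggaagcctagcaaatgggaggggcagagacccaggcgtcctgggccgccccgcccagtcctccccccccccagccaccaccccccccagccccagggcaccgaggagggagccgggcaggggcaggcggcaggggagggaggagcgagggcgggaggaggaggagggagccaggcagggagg
Rarg internal start, chr15:102246501-102246750, minus strand: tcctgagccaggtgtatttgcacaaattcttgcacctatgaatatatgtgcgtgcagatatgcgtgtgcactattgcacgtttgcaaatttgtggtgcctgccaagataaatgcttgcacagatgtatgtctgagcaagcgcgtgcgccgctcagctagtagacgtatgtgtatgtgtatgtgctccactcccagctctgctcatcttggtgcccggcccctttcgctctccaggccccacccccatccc
The upstream stretch was 74.4% G and C and the internal one 52.4%. The 149 bases between the starts of Rxrb and of its neighbour Slc39a7, which is read the other way, are given because the highest member peak at 120 h had its summit there. They hold none of the motifs searched, and 21 CpG.
Rxrb and Slc39a7, chr17:34031663-34031811, plus strand: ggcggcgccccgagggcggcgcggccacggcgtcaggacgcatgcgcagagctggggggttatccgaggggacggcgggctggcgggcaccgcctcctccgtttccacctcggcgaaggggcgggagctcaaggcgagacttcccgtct
In windows of 300 bases around the highest summit of each region, no member window held a DR5, a DR2 or a DR1, against 0.141%, 0.252% and 0.182% of all 87144 windows. The Rarb DR5 was not wholly inside the window of its region. The hexamer AGGTCA, searched on both strands and also counted where it lies in a repeat, was in 5 of 38 member windows and in 15.7% of all windows. It was in 4 of the 13 member promoters and in 16.3% of all promoters.

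The 38 regions were spread unevenly over the genes, with 12 assigned to Rara, 2 to Rarb, 8 to Rarg, 4 to Rxra, 5 to Rxrb and 7 to Rxrg. A peak in all 8 libraries was found in 10 of the 38 regions (26.3%), against 17.8% of all merged regions. These 10 comprised 4 Rara regions, 1 Rarb region, 2 Rarg regions and 3 Rxrb regions, and neither Rxra nor Rxrg had one. A CpG island lay in 7 of the 10, and in 58.6% of all regions present in every library. Their median G and C content was 66.3%, against 61.0% for all such regions and 57.3% for the other 28 member regions. Of the 10, 2 held a start of the member gene alone, 2 held its start and that of another gene, 3 held only the start of another gene, and 3 held no start. In all, 15 of the 38 regions were also assigned to other genes by the authors' rule, so a peak there cannot be tied to the receptor gene.

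**Figure D1:**
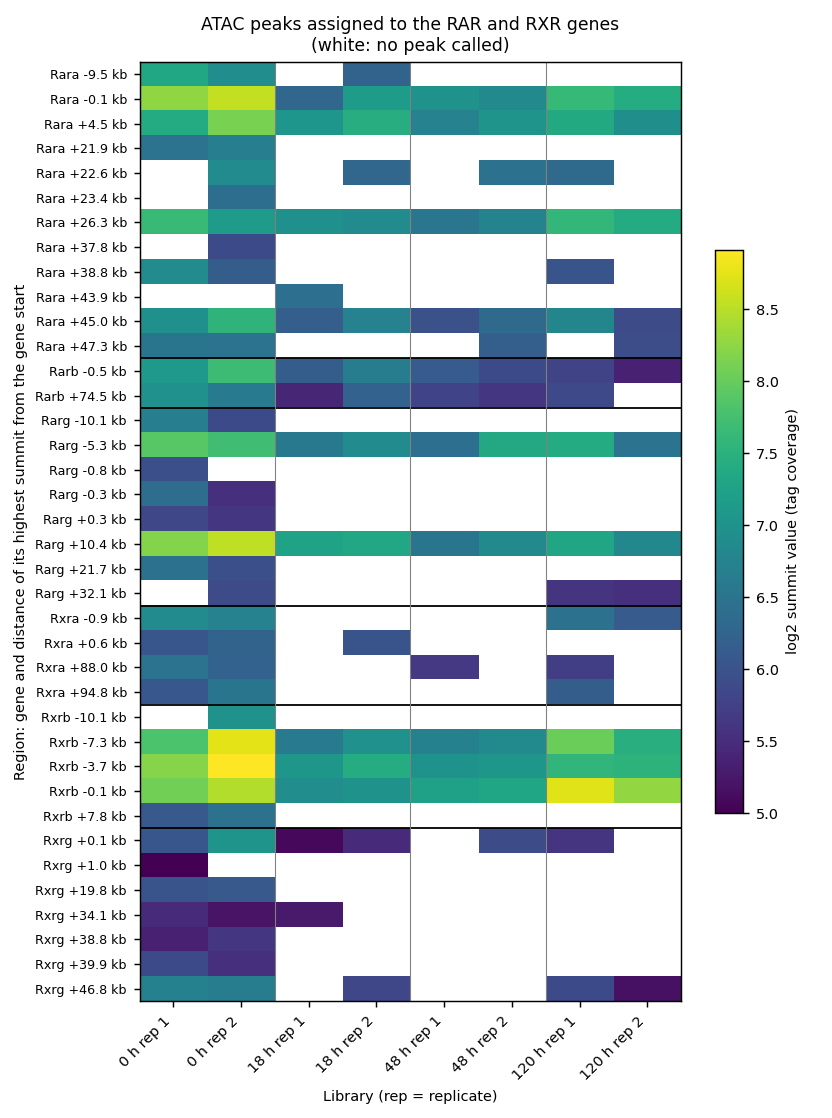
Heat map of the 38 regions (rows, named by gene and by the distance in kb of the highest summit from the gene start) in the 8 libraries (columns); colour is the log2 summit value in tag coverage and white means that no peak was called. Rows filled across all libraries are 10, and of the other 28 rows 14 are filled only in the 0 h columns.

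Every gene but Rarb had more peaks in both 0 h libraries than in any later library. This pattern was seen in 5 of the 6 genes and in 36.9% of all 21490 genes with a peak. Rxrg, the RXR with the narrowest tissue range, had 7 and 6 peaks before RA, 2 and 2 after 18 h, 0 and 1 after 48 h, and 2 and 1 after 120 h. Rara had 8 and 11 before RA and 4 to 6 later, and Rarg had 7 and 7 before RA and 2 to 4 later. Rxra had 4 and 4 before RA and 0 to 3 later. Rxrb had 4 and 5 before RA and 3 in each later library. Rarb had 2 in all libraries except 120 h replicate 2, where it had 1.
Rxrg had 5.17 more peaks on average at 0 h than later, Rara 4.17, Rarg 4, Rxra 3 and Rxrb 1.5. Each of these gave p = 0.0714 in an exact permutation test (two-sided, smaller tail doubled, n = 2 against 6), which is the smallest p this design allows in that form. Ranked by absolute difference the same exact test gave p = 0.0357 for each of the 5, again its smallest value. For Rarb the difference was 0.167, with p = 1 in the same exact test.
With peaks of at least 50 alone, each of the 5 genes again had more peaks in both 0 h libraries than in any later one. With peaks in the gene or near its start alone, Rara (4 and 6 against 3 to 4) and Rxrb (1 in each library) no longer did. With the 24643 highest peaks of each library, 0 of the 6 genes had more peaks in both 0 h libraries, against 2.53% of all genes, and the differences for Rarg and Rxra turned to -0.333 each.

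**Figure D2:**
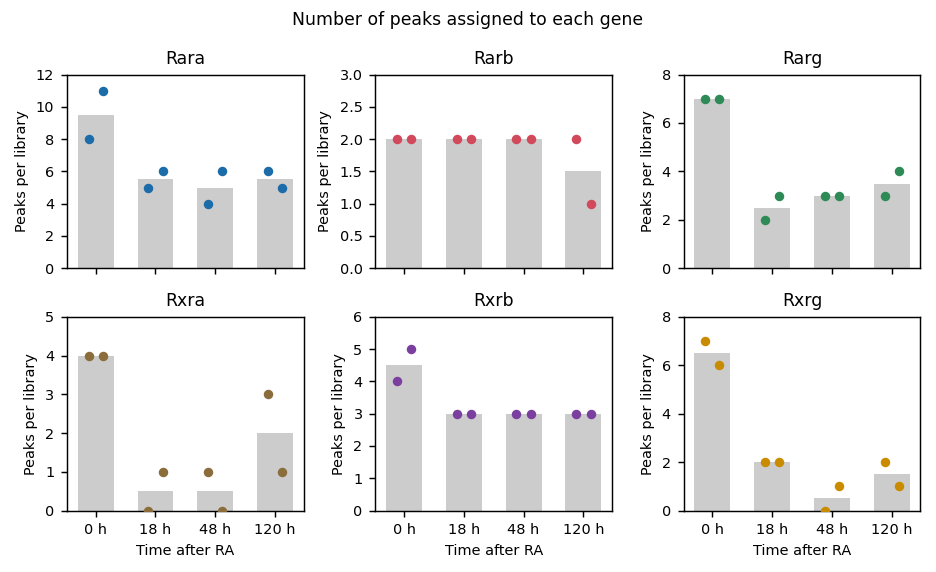
Number of peaks assigned to each gene (vertical axis, from 0) at each time after RA (horizontal axis); points are the 2 libraries of a timepoint and bars their mean. The 0 h points lie above all later points for every gene except Rarb.

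A region was counted at a timepoint when both of its libraries had a peak. Of the 38 regions, 30 were counted before RA, 12 after 18 h, 11 after 48 h and 13 after 120 h, and 7 were counted at no timepoint. Of all 87144 merged regions, 59063 were counted before RA, and the number of all regions counted at 18, 48 or 120 h is not given. By peaks per library, a different measure, the whole series dropped after 0 h. There were 24643 to 39551 peaks in later libraries against 69089 and 72215 at 0 h. Of the 30 counted at 0 h, 16 (53.3%) were counted at no later timepoint, against 51.7% of all regions counted at 0 h, a share close to that background. The 16 had low peaks, with 0 h summit values from 37 to 162 and a median of 69.5. The 10 regions present in all libraries had values of 125 to 482 before RA, with a median of 255. With the same number of highest peaks from each library, 11 member regions were counted at 0 h and 1 of them at no later timepoint, against 12.7% of all regions. A single region of the 38, past the end of Rarg and also assigned to Itgb7 and Zfp740, was counted only at 120 h. It also had a peak in 0 h replicate 2.

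Rara encodes RARα and lies at chr11:98927818-98974942 on the plus strand. Its main start lies in the region chr11:98937123-98938250, which holds a CpG island and had its highest summit 96 bp before the start. The summit values there were 307 and 376 before RA, 78 and 143 after 18 h, 128 and 117 after 48 h, and 196 and 172 after 120 h. Both 0 h libraries were above all others, and both 120 h libraries were above all those of 18 and 48 h. An intronic region 4480 bp past the start had values of 170 and 279 before RA, 133 and 174 after 18 h, 107 and 130 after 48 h, and 167 and 123 after 120 h. Here the timepoints overlapped, since 18 h replicate 2 exceeded 0 h replicate 1.
A further intronic region, 26272 bp past the start, had 198 and 144 before RA, 125 and 119 after 18 h, 93 and 108 after 48 h, and 193 and 170 after 120 h. Its 120 h libraries lay within the range of the 0 h libraries, and those of 18 and 48 h lay below it. The fourth region present throughout lay 45024 bp past the start, at the start of Gjd3, a gap junction gene, with 125 and 187 before RA and 60 to 111 in the later libraries.
A Rara transcript that starts farther upstream was open in fewer libraries. Its start region, chr11:98927624-98928686, had summit values of 162 and 121 before RA and 76 in 18 h replicate 2, and no peak in any other library. The start of an internal transcript, 22560 bp past the main start, had a peak in 4 libraries, one at each timepoint, with values of 119, 78, 89 and 82. Of the 6 remaining Rara regions, 3 were found in 1 library each. Another lay 21920 bp past the start, with 90 and 102 before RA and no later peak. The last 2 lay past the end of the gene, with values of 118 and 71 before RA and 65 in 120 h replicate 1 in one, and of 92 and 90 before RA, then 73 in 48 h replicate 2 and also 61 in 120 h replicate 2 in the other.

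Rarb encodes RARβ and lies at chr14:16430839-16575827 on the minus strand. Its start region, chr14:16574904-16575944, holds the DR5 printed above, a CpG island, and the starts of Rarb and of the unnamed transcript Gm48162. The summit values were 138 and 205 before RA, 71 and 101 after 18 h, 70 and 59 after 48 h, and 56 and 41 after 120 h. It was the lowest of the 10 regions at 120 h in both libraries, and both 120 h libraries lay below all others. The mean was 171.5 ± 47.4 at 0 h and 48.5 ± 10.6 at 120 h (SD, n = 2 each).
The only other Rarb region was intronic, 74474 bp past the start at chr14:16500565-16501031. Its values were 126 and 97 before RA, 43 and 75 after 18 h, 55 and 49 after 48 h, and 58 in 120 h replicate 1, with no peak in 120 h replicate 2. Both 0 h libraries were above all later ones.

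Rarg encodes RARγ and lies at chr15:102234938-102257517 on the minus strand. The upstream start, whose sequence is given above, had 3 small regions around it and no peak after 0 h. The region 299 bp inside the gene had summit values of 57 and 49 before RA, the one 341 bp before the start had 84 and 46, and the one 789 bp before the start had 62 in 0 h replicate 1 alone.
The region at the internal start, chr15:102246303-102247294, was open in every library and holds a CpG island. It had 292 and 371 before RA, 152 and 162 after 18 h, 92 and 116 after 48 h, and 159 and 114 after 120 h. Both 0 h libraries lay above all others, and the 120 h libraries overlapped those of 48 h. Within the 0 h libraries its lowest value, 292, was above the highest value at the upstream start, 84.
A region 5301 bp before the upstream start was also present throughout, with 238 and 210 before RA, 96 and 119 after 18 h, 86 and 164 after 48 h, and 170 and 90 after 120 h. Its window held the hexamer AGGTCA, and its replicates at 48 h and at 120 h differed by more than the means of those timepoints did. A region in the 3′ UTR had 88 and 62 before RA, a distal one 10069 bp before the start had 102 and 59, and neither had a later peak. The region counted only at 120 h lies past the end of Rarg, in an intron of Itgb7, with 48 and 46 at 120 h and 60 in 0 h replicate 2.

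Rxra encodes RXRα and lies at chr2:27677201-27762957 on the plus strand. No Rxra region was counted at 18 h or 48 h. The higher of its 2 regions near the start, chr2:27676084-27677132, held no annotated start and had its summit 881 bp before it. It had 119 and 107 before RA, no peak in any of the 4 libraries of 18 and 48 h, and 89 and 70 at 120 h. Of the member regions within 1000 bp of a start of their own gene, it was the only one counted at 0 h and 120 h and at neither timepoint between.
A region 623 bp inside the gene had 66 and 76 before RA and 65 in 18 h replicate 2. The region 87951 bp past the start, beyond the end of the gene, had 90 and 75 before RA, a height of 50 in 48 h replicate 1 and one of 53 in 120 h replicate 1. The other distal region had 67 and 92 before RA and 71 in 120 h replicate 1. All these values were below those of the Rara and Rxrb start regions in the 0 h libraries.

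Rxrb encodes RXRβ and lies at chr17:34031812-34038399 on the plus strand, in a stretch packed with genes. Its start region, chr17:34031394-34032582, also holds the start of Slc39a7, a zinc transporter gene, and the highest summit lay between the starts. The values were 272 and 351 before RA, 121 and 127 after 18 h, 151 and 158 after 48 h, and 423 and 309 after 120 h. The 18 and 48 h libraries were all below those of 0 h, and the 120 h libraries overlapped those of 0 h. The mean was 311.5 ± 55.9 before RA, 124 ± 4.24 after 18 h, 154.5 ± 4.95 after 48 h, and 366 ± 80.6 after 120 h (SD, n = 2 each).
The region 7332 bp before Rxrb is at the start of Ring1, a Polycomb gene, with 223 and 431 before RA, 98 and 126 after 18 h, 105 and 116 after 48 h, and 261 and 175 after 120 h. The region 3748 bp before it is at the start of H2-Ke6, with 294 and 482 before RA, 134 and 171 after 18 h, 127 and 134 after 48 h, and 190 and 185 after 120 h. At Ring1 one 120 h library lay inside the 0 h range, whereas at H2-Ke6 both lay below it. A region at the start of Col11a2, a collagen gene, had 68 and 89 before RA and no later peak, and a region 10052 bp before Rxrb had 128 in 0 h replicate 2 alone.

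Rxrg encodes RXRγ and lies at chr1:167598384-167639623 on the plus strand. Its start region, chr1:167598297-167599000, had 66 and 130 before RA, 34 and 44 after 18 h, a height of 60 in 48 h replicate 2 and one of 48 in 120 h replicate 1, and no peak in the other library of either timepoint. The internal start, 19782 bp past the upstream one, had 65 and 68 before RA and no peak in any later library, and the hexamer AGGTCA lies in its window.
The highest Rxrg region in the lower of the 0 h libraries lay past the end of the gene, with 105 and 101 before RA, 57 in 18 h replicate 2, and 59 and 36 at 120 h. The other 4 regions were intronic and had values of 32 to 59 before RA, and of these only the one 34118 bp past the start had a later peak, 39 in 18 h replicate 1. By its highest peak in each library, Rxrg was the lowest of the 6 genes or next to lowest at 0 h, with 105 and 130, against 119 and 107 for Rxra, 138 and 205 for Rarb, 292 and 371 for Rarg, 307 and 376 for Rara, and 294 and 482 for Rxrb. The ranges of Rxrg and Rxra overlapped, Rarb lay above both and below the other 3, and the ranges of Rarg, Rara and Rxrb overlapped. The 0 h values given for Rxrb were those of the region at the start of H2-Ke6, and the Rxrb start region had 272 and 351. These values compare heights and not expression. At 120 h the highest Rxrb peak was 423 and 309, above 196 and 172 for Rara and 170 and 114 for Rarg, while Rarb had 58 and 41.

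**Figure D3:**
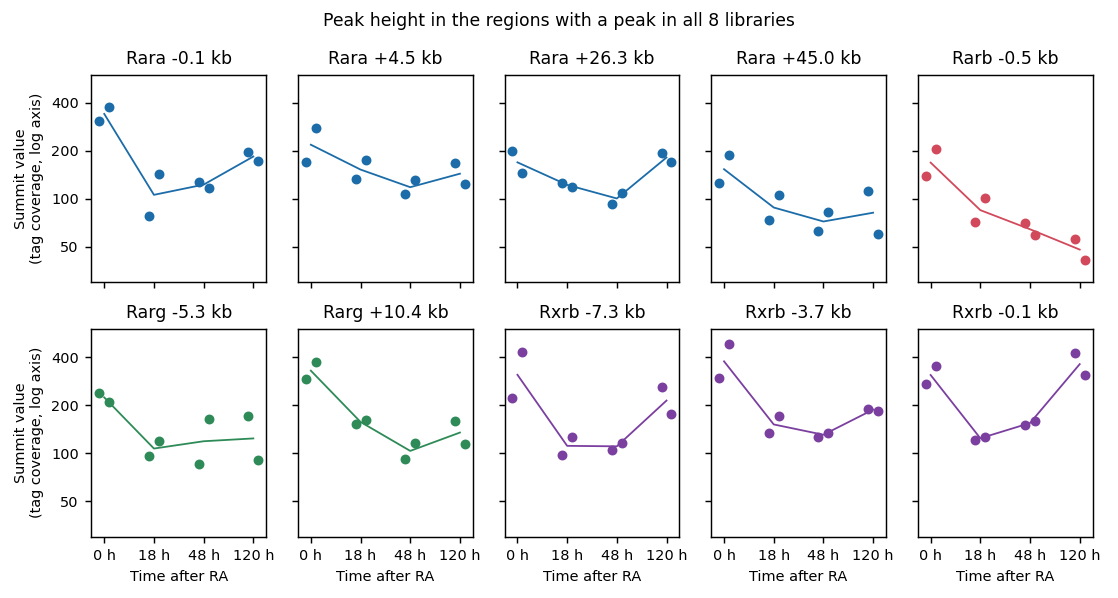
Summit value in tag coverage (vertical axis, logarithmic) at each time after RA (horizontal axis) in the 10 regions present in every library; points are libraries and lines join the geometric means of the 2 libraries. The Rarb start falls to 56 and 41 at 120 h, and the Rxrb start, at -0.1 kb, returns to 423 and 309.

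Whether heights changed with time was tested with limma on log2 summit values across the 15536 regions that had a peak in every library, with Benjamini-Hochberg adjustment over all of them and a threshold of 0.05. Only 10 member regions could enter, so these tests say nothing of the 28 regions that lacked a peak somewhere. At 18 h, 8 of the 10 were lower than at 0 h, and 92.3% of all regions were lower, so the members' share is near the background. The median log2 change of the 10 was -1.07, and that of all regions was -1.23. The largest fall was at the Rara start (log2 -1.69 ± 0.37 SE, adjusted p = 7.8e-05). The other 2 regions were the Rara introns, with log2 changes of -0.52 (adjusted p = 0.169) at 4480 bp and -0.47 (adjusted p = 0.212) at 26272 bp. Leaving out 0 h replicate 2 gave a count of 3, and leaving out 18 h replicate 1 a count of 4.
At 48 h all 10 were lower than at 0 h, and so were 93.3% of all regions. The log2 changes were from -1.67 at the Rarg internal start (adjusted p = 3.53e-05) to -0.75 in the Rara intron at 26272 bp (adjusted p = 0.0459). The intron was not called with the replicate block (adjusted p = 0.0608), mean signal (adjusted p = 0.075) or an intensity trend (adjusted p = 0.0668), which left 9, nor when any 1 library of 0, 18 or 48 h was left out. Leaving out 0 h replicate 2 or 48 h replicate 1 gave a count of 5. Between 18 h and 48 h, 0 of the 10 changed by limma, and 0.00644% of all regions did, which is 1 region. At an unadjusted p under 0.05 there were 269.
At 120 h, 6 of the 10 were lower than at 0 h, against 44.8% of all regions. The fall at the Rarb start was the largest (log2 -1.81 ± 0.37 SE, adjusted p = 1.32e-05), followed by the Rarg internal start (-1.29, adjusted p = 0.00216) and the H2-Ke6 start by Rxrb (-1.01, adjusted p = 0.0183). The region at Gjd3 (-0.91, adjusted p = 0.0349), the Rara start (-0.89, adjusted p = 0.039) and the region 5301 bp before Rarg (-0.85, adjusted p = 0.0477) also fell. For the Rxrb start the log2 change was 0.23 ± 0.37 SE (adjusted p = 0.638). The count was 1, the Rarb start, without 0 h replicate 2, and 3 without 48 h replicate 1, 48 h replicate 2 or 120 h replicate 2. From 48 h to 120 h the Rxrb start rose by a log2 of 1.23 (adjusted p = 0.014) and the region at Ring1 by 0.95 (adjusted p = 0.0455), 2 of 10 regions against 23.7% of all regions that rose. Neither was called without 48 h replicate 1, without 48 h replicate 2 or without 120 h replicate 1. From 18 h to 120 h the Rxrb start rose by 1.54 (adjusted p = 0.00248), 1 of 10 regions, against 16.1% of all regions. The comparisons with 0 h share their control libraries, so they are not independent of each other. No share over all regions is given for the counts under the replicate block, mean signal, the intensity trend or left-out libraries.

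Since nearly all regions were lower after 0 h, the heights were also centred on each library's median over the 15536 regions, and changes on this scale are relative to the median region. The centred values compare a region with the rest of its library and hold no information on a shift common to all regions. At 18 h, 0 of the 10 member regions changed by limma on this scale, and 1.47% of all regions did. At 48 h again 0 of the 10 changed, against 4.77% of all regions. At an unadjusted p under 0.05 there were 2065 regions at 18 h and 2978 at 48 h, and the 2 Rara introns and the region at Gjd3 were among the former with relative log2 changes of 0.74, 0.79 and 0.46.
At 120 h, 3 of the 10 member regions changed. The Rxrb start was higher than at 0 h by a relative log2 of 1.12 ± 0.20 SE (adjusted p = 0.00168) and the Rara intron at 26272 bp by 0.99 ± 0.26 SE (adjusted p = 0.0112), 2 of 10 regions against 23.0% of all regions that rose. The Rarb start was lower by a relative log2 of -0.92 ± 0.22 SE (adjusted p = 0.00747), 1 of 10 regions against 15.8% of all regions that fell. Of all 15536 regions, 572 had a larger relative change than the Rxrb start and 1266 a lower one than the Rarb start. The rise at the Rxrb start held with each library left out in turn and under quantile normalization, where it was 0.79 (adjusted p = 0.0181). The fall at the Rarb start held with each library left out and was -0.65 under quantile normalization (adjusted p = 0.0731). The Rara intron was not called without 0 h replicate 2 (0.63, adjusted p = 0.107) or without 120 h replicate 2 (0.76, adjusted p = 0.102).
From 18 h to 120 h on this scale, the Rxrb start rose by 1.18 (adjusted p = 0.00306), 1 of 10 regions against 15.0% of all. The Rarb start fell (-1.19, adjusted p = 0.0043) and so did the Rarg internal start (-0.59, adjusted p = 0.0423), 2 of 10 against 12.3% of all. The Rarg value was not called under quantile normalization (-0.66, adjusted p = 0.0521) or when either library of 18, 48 or 120 h was left out. From 48 h to 120 h the Rxrb start rose by 0.72 (adjusted p = 0.0342), 1 of 10 against 9.47% of all, and the Rarb start fell (-0.93, adjusted p = 0.0235), 1 of 10 against 7.45% of all. Neither was called under quantile normalization. The Rxrb call was lost without either 48 h library or without 120 h replicate 2, and the Rarb call without any 1 of the 48 and 120 h libraries.

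**Figure D4:**
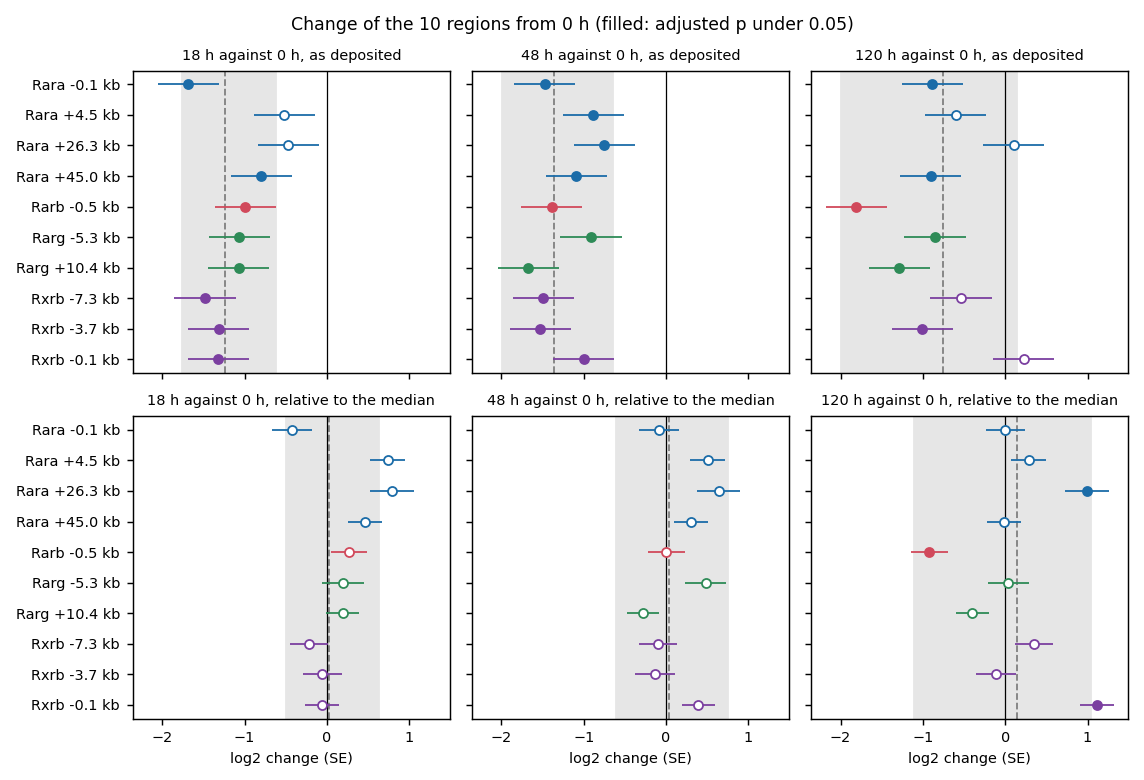
Log2 change of summit value from 0 h (horizontal axis, with SE) in the 10 regions at 18, 48 and 120 h, as deposited (top) and relative to the median region (bottom); grey bands hold the middle 90% of all 15536 regions, dashed lines their median, and filled points passed an adjusted p of 0.05. At 18 h the Rara introns, at 4.5 and 26.3 kb, lie above the band on both scales, and at 120 h the Rarb start lies at -0.92 and the Rxrb start at 1.12 on the relative scale.

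For the Rara, Rarb and Rxrb regions within 1000 bp of the gene start given in the deposited table and present in all libraries, the start regions of other genes with the most similar course were found by the Euclidean distance of centred log2 heights over the 8 libraries, among 8965 start regions. Close to the Rara start in this measure was that of Fzd5 (distance 0.34), against a median distance of 2.12. The Rarb start was nearest to those of Ccdc105 (0.593) and Ddah1 (0.597), against a median of 3.37. For Ccdc105 the summit values were 156 and 264 before RA, 69 and 82 after 18 h, 69 and 56 after 48 h, and 64 and 48 after 120 h. The Rxrb start was nearest to those of Nelfa (0.412) and of Pik3r2 with 2010320M18Rik (0.421), against a median of 2.44. Nelfa had 225 and 318 before RA, 134 and 133 after 18 h, 153 and 150 after 48 h, and 453 and 350 after 120 h. The Rarb start lay farther from the starts named beside it than the Rara and Rxrb starts did from theirs. Its median distance to all starts was also the largest, at 3.37 against 2.12 and 2.44.

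The receptors' partners were examined as lists, by all regions assigned to a gene of the list. Of the 10 corepressor genes, 17 regions entered the fit, and 16 were lower at 18 h, all 17 at 48 h and 3 at 120 h as deposited, with medians of -1.22, -1.29 and -0.52. The shares of all regions that were lower were 92.3%, 93.3% and 44.8%. Relative to the median region, 0 changed at 18 or 48 h and 4 rose and 1 fell at 120 h. On that scale 1.47% of all regions changed at 18 h and 4.77% at 48 h, and 23.0% rose and 15.8% fell at 120 h, and the same shares are the background of the lists that follow. The largest rise was at the start of Ncor1, which encodes the corepressor held by unliganded RARs, in a region also assigned to Pigl. This region had 213 and 236 before RA and 281 and 225 at 120 h (relative log2 1.06, adjusted p = 0.00452 in limma). The largest fall was in Tbl1xr1, with 378 and 328 before RA and 147 and 35 at 120 h (-1.40, adjusted p = 0.00763). Of the coactivators, 15 regions entered, and 14, 15 and 3 were lower and 0 higher at 18, 48 and 120 h as deposited. Relative to the median, 1 fell and 0 rose at 18 h and at 48 h, and 7 rose and 0 fell at 120 h. The region that fell at 18 h lay near Ep300, a histone acetyltransferase gene (-1.13, adjusted p = 0.0139), and the largest rise at 120 h was at the start of Med1, a Mediator subunit, shared with Cdk12 (1.23, adjusted p = 0.00243).
Of the 16 genes of retinoid delivery, synthesis and breakdown, all had a peak, and 10 had more peaks in both 0 h libraries than later (36.9% of all genes did). In the other lists this held for 1 of 10 corepressors, 1 of 10 coactivators, 5 of 13 other RXR partners and 5 of 14 RA-responsive genes. Of the retinoid genes, 8 regions entered the fit. As deposited 7, 7 and 4 of the 8 were lower at 18, 48 and 120 h. Relative to the median, 0 changed at 18 or 48 h, and 1 rose and 1 fell at 120 h. The region that fell was at the start of Lrat, which esterifies retinol, and was also assigned to 4930564K09Rik. It had 123 and 146 before RA and 60 and 37 at 120 h (-0.62, adjusted p = 0.024 in limma). The region that rose was assigned to Rdh11 and Vti1b (0.63, adjusted p = 0.0307). Of the other partners of RXR, 18 regions entered, and 15, 16 and 6 were lower and 0, 0 and 1 higher at 18, 48 and 120 h as deposited. Relative to the median, 1 rose and 0 fell at 18 h, 2 rose and 0 fell at 48 h, and 5 rose and 2 fell at 120 h. The largest rise was 2031 bp inside Thra, the thyroid hormone receptor α gene, which had 117 and 114 before RA, 136 and 136 after 18 h, 186 and 198 after 48 h, and 542 and 357 after 120 h. It was higher in every later library than in both 0 h libraries, also without centring, and its relative log2 change was 1.5 at 18 h (adjusted p = 0.00197) and 2.82 at 120 h (adjusted p = 1.65e-05). The largest fall was in a region assigned to Nr1h4 and Gas2l3 (-1.58, adjusted p = 0.000611).
Of 14 RA-responsive genes, Rarb among them, 14 regions entered, and 11, 10 and 4 were lower and 0 higher at 18, 48 and 120 h as deposited. Relative to the median, 2 rose and 0 fell at 18 h, 3 rose and 0 fell at 48 h, and 7 rose and 1 fell at 120 h. The largest rise at 18 h was at the start of Stra8, which germ cells need for meiosis, in a region also assigned to Wdr91. This region had 123 and 159 before RA and 133 and 192 at 18 h (1.45, adjusted p = 0.00316 in limma). At 120 h the largest rise was at the start of Kit, the stem cell factor receptor gene. The Kit region had 96 and 144 before RA and 250 and 159 at 120 h (1.65, adjusted p = 0.000148 in limma). The single region of the list that fell was the Rarb start.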

How the data were processed

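ATAC-seq libraries of sorted germ cells at 4 timepoints, 2 each, were analysed from the deposited table of peaks. Per the labels and the methods, the authors aligned reads to mm10 with BWA 0.7.12, removed duplicates, scaled libraries to the same number of tags and called peaks in each library with MACS2 2.1.0 without a control. The deposited values are signal (tag coverage, after reads were extended) at the summit and averaged over the peak, with genes within about 10 kb. The submitters' processing notes also name bcl2fastq 2.20, bedtools 2.25.0 and SAMtools 0.0.19. Reads behind a region were not used here, so depth and counting error are unknown. Cell numbers differ between labels and methods.

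Overlapping peaks (at least 1 bp) were merged, and the highest summit value of a library was its height. Log2 heights were fitted with limma (version 3.58.1, R 4.3.3; 4 groups, no block). As deposited, limma gave all regions the same SE. Peaks per gene were compared by exact permutation tests in Python 3.11.15 (numpy 2.4.6, pandas 2.3.3). The merging, the permutation test and the limma fit were tested on simulated data. The simulated heights were centred on each library's median, so the fit to heights as deposited was not tested in this way. Features came from GENCODE vM21 and sequences from RefSeq GRCm38.p6. Deposited starts are counted from 0 and were raised by 1. Named regions were the start regions, all regions present in 8 libraries, the highest region of 1 timepoint only, and for each list the largest rise and fall relative to the median at 18 and 120 h. The members and lists were chosen with earlier results of these data known. Alternatives were other scalings, filters, merging rules, a replicate block and each library left out. Browser tracks were not used. A start region close in course to that of Rara is not reported here.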

Additional observations from a re-analysis of the deposited data

Results flagged for a closer look

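The change from 0 h differed between 18 h and 120 h, relative to the median region, in 3 of the 10 member regions with a peak in all libraries, by the contrast of 120 h with 18 h in limma. In the same contrast 4247 of all 15536 regions were called, so the members' share is near the background. At the Rxrb start the difference was 1.18 (adjusted p = 0.00306), and as deposited it was 1.54 (adjusted p = 0.00248). Both 120 h libraries were higher than both 18 h libraries. The start is shared with Slc39a7, and which of these genes the height belongs to was not tested. At the Rarb start the difference was -1.19 (adjusted p = 0.0043), and as deposited it was -0.82 (adjusted p = 0.0979). Both 120 h libraries were lower than both 18 h libraries. At the Rarg internal start the difference was -0.59 (adjusted p = 0.0423), and as deposited it was -0.22 (adjusted p = 0.7), where 120 h replicate 1 lay between the 18 h libraries. The call was lost under quantile normalization and with any 1 library of 18, 48 or 120 h left out. No group had 4 or more libraries, so single libraries could not be tested as outliers.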

How the results depend on the processing

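Counts of calls turned on the scaling. With median centring, quantile normalization or the replicate block with median centring, the member regions lower than at 0 h were 0 after 18 h and 0 after 48 h, and at 120 h they were 1, 0 and 1. With absent peaks at the lowest value of a library 31 member regions entered, and 22, 26 and 18 were lower at 18, 48 and 120 h. Of these regions 30 were counted at 0 h, 16 of them at no later timepoint. A later peak that was absent was lower by construction, so these counts are no test of a fall. No share over all regions is given for this setting. With only peaks in the gene or near its start 6 entered, and 4, 6 and 3 were lower. At 120 h, 3 were lower with the replicate block, with only the 2 timepoints compared and with an intensity trend. From 48 h to 120 h, 0 changed under quantile normalization, and 1 under the replicate block, only the 2 timepoints, the intensity trend, absent peaks at the lowest value, windows about summits, and peaks in the gene or near its start. With 1 library left out, the counts ran 3 to 8 after 18 h, 5 to 10 after 48 h and 1 to 6 after 120 h, and 0 to 3 between 48 h and 120 h, with 3 without 120 h replicate 2. No change between 18 h and 48 h was called under any alternative. Apart from median centring, no share over all regions is given for these alternatives, so their counts have no background. The alternatives of the relative changes, and those of the regions counted at 0 h and no later timepoint, were added after the data were seen.

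Same-numbered replicates did not pair across timepoints. The correlation of their deviations lay between -0.224 and 0.248 over the 6 pairs of timepoints, and the block gave 8, 9 and 3 regions lower at 18, 48 and 120 h, and 1 changed from 48 h to 120 h. The region lost at 48 h was the Rara intron at 26272 bp. Mean signal and the intensity trend gave 7 at 18 h and 9 at 48 h.

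Signs turned under centring, since the shared fall is then removed. For the Rara introns at 4480 and 26272 bp, the Gjd3 region, the Rarb start, the Rarg internal start and the region before Rarg, the log2 changes at 18 h became 0.74, 0.79, 0.46, 0.27, 0.19 and 0.19 with median centring, with or without the replicate block, and 0.81, 0.81, 0.46, 0.27, 0.21 and 0.21 with quantile normalization. At 48 h the same 2 introns, the Gjd3 region, the region before Rarg and the Rxrb start became 0.51, 0.64, 0.30, 0.48 and 0.39 when centred, and 0.58, 0.65, 0.27, 0.53 and 0.45 with quantiles, and the Rarb start became 0.0047 when centred. At 120 h the Rara start became 0.0028, the intron at 4480 bp 0.29, the region before Rarg 0.037 and the Ring1 region 0.35 when centred. With quantiles the intron was 0.28, the Gjd3 region 0.15, the region before Rarg 0.068 and the Ring1 region 0.17. With 1 library left out, the Rara intron at 26272 bp had log2 changes of -0.13, without 0 h replicate 2, to 0.33 at 120 h as deposited.

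For peaks per gene, the differences with the same number of highest peaks were 0 for Rarb and Rxrg, -0.333 for Rarg and Rxra, 0.667 for Rara and 0.5 for Rxrb. With peaks in the gene or near its start the difference was 0 for Rxrb and 1.5 for Rara (exact permutation p = 0.286). By absolute difference the differences of 4.17, 4, 3, 1.5 and 5.17 each gave p = 0.0357 in the exact permutation test. That is the smallest p this design allows in that form, and it was not adjusted over the genes. With the smaller tail doubled, the exact test gave p = 0.0714 for each. With 1 library left out, the differences were 2.67 to 5.67 for Rara, 0 to 0.2 for Rarb, 3.8 to 4.2 for Rarg, 2.8 to 3.4 for Rxra, 1 to 2 for Rxrb and 4.67 to 5.67 for Rxrg. Depth behind a single peak is unknown, and an absent peak sets no height.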
